A study of Mus musculus with 4 samples.

Results

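The genes described are 42 genes of striated muscle: the sarcomere proteins of skeletal muscle, its calcium store, its surface membrane and nerve endplate, and the factors that drive muscle formation. Members were taken by symbol from a fixed list of 42 names, and all 42 were measured, by 70 of the 34945 probe sets that name 1 gene, among 18193 genes in all. The list was chosen by function, but with the log2 differences of the in vivo pair already known to be positive for a set of muscle markers, so the in vivo values below describe that excess and do not test it.

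The study hybridised labelled cRNA from mouse dermal fibroblasts to 4 Affymetrix expression arrays, 1 for each of 4 groups. The deleted in vivo group came from animals with the Rbpj gene flanked by loxP sites on both copies and a Cre transgene that the labels call ColI, and the in vivo control had the floxed gene without Cre. The deleted culture was given an adenovirus with Cre and its control an adenovirus with GFP, so both in vitro groups were infected. The labels give a C57BL/6 background, and give neither age, sex, the number of animals pooled nor whether the in vivo cells were cultured. Rbpj encodes RBP-J kappa, the DNA-binding partner of activated Notch receptors. With 1 array per group there is no replicate error, no difference below has a replicate check and no test was made. A difference is a log2 value of the deleted array minus that of its control, and 2-fold marks the size used for counting.

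Muscle fibres form when myoblasts leave the cell cycle, fuse and switch on sarcomere genes under the myogenic factors Myod1, Myf5, Myog and Myf6, together with Mef2 proteins. Embryonic and fetal isoforms of myosin, actin, troponin and the acetylcholine receptor come first and give way to adult fast or slow isoforms. Satellite cells, the stem cells of muscle, are marked by Pax7, and Notch signalling through RBP-J is known to hold them undifferentiated. Mouse skin also lies on a thin sheet of striated muscle, the panniculus carnosus.

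Facts of the arrays bear on these values. The deposited log2 signals ran from 2.87 to 13.79, with medians of 5.06 and 5.02 in the deleted and control in vivo arrays and 4.96 and 4.94 in the deleted and control in vitro arrays. A signal of 5.28, the 40th percentile of gene means after normalization, was used as the level cutoff, and a signal under it was treated as dim, so that the size of a difference from it is not exact. Systems and array batches cannot be told apart. Fibroblast markers were bright on all arrays (8 of 8 above the cutoff, median log2 12.34 in the deleted in vivo array and 12.29 in its control, 12.89 in the deleted culture and 12.58 in its control). The 3 probe sets of Rbpj differed by -0.83 to -0.10 in vivo and by -1.34 to 0.10 in vitro. The brightest of them differed by -0.10 in vivo (8.51 deleted, 8.61 control) and by -1.11 in vitro.

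Muscle genes were higher in the deleted in vivo array than in its control. Of the 42 members, 20 exceeded the control 2-fold or more and 0 fell 2-fold or more below it, whereas 1.87% of all genes lay above and 2.32% below by that size. The median in vivo difference was 0.86 over the members and -0.01 over all genes, and 39 of 42 members had a positive difference, against 47.5% of all genes. Among the 181 genes with the largest in vivo difference, 0.995% of all genes, 18 were members. By probe set, 23 of 70 were at least 2-fold higher, against 1.65% of all single-gene probe sets. In a bulk sample more muscle cells and more muscle RNA per cell cannot be told apart. In the deleted culture 1 member exceeded its control 2-fold or more, as did 0.517% of all genes, and 1 lay below it by that size, as did 0.693%.

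**Figure D1:**
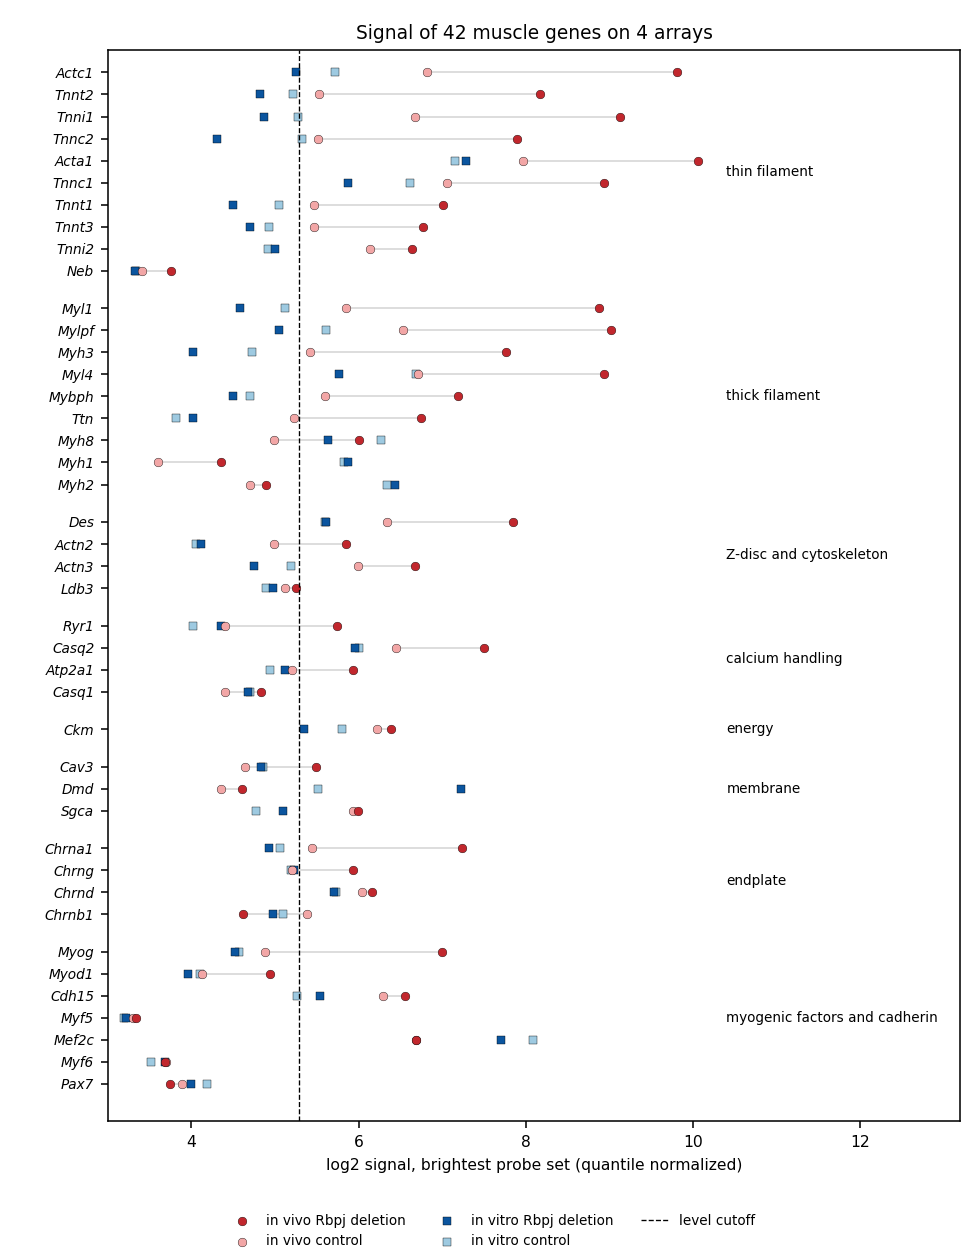
Log2 signal (horizontal axis, quantile normalized) of the brightest probe set of each of 42 muscle genes on each array, by role; circles are in vivo and squares in vitro arrays, dark for the deletion and light for the control, and the dashed line is the level cutoff of 5.28. The dark circle lies right of the light circle for 39 of the 42 genes, and 29 members in the deleted culture and 27 in its control lie under the cutoff.

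Thin filament genes, which encode the actins and the troponin complex that makes the filament sensitive to calcium, held 8 members at least 2-fold higher in vivo of 10. Actc1, the actin of heart and of developing skeletal muscle, read log2 9.80 in the deleted in vivo array, against 6.81 in its control, and 5.25 in the deleted culture, against 5.72 in its control. Acta1, the actin of adult skeletal muscle, read 10.06 in the deleted in vivo array, against 7.97 in its control, and 7.28 in the deleted culture, against 7.15 in its control. Both actins were thus highest in the deleted in vivo array, by 2.99 (7.95-fold) for Actc1 and 2.08 (4.24-fold) for Acta1 over the control. Actin genes are near-identical in coding sequence, and cross-hybridisation between their probe sets was not tested.

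The troponin T genes encode the subunit that binds tropomyosin. Tnnt2, its cardiac and embryonic form, read 8.17 in the deleted in vivo array, against 5.53 in its control, and 4.82 in the deleted culture, against 5.21 in its control. A second Tnnt2 probe set differed by 2.71 in vivo, close to the 2.64 of the first, and another, dim on all arrays, by 0.14. Slow Tnnt1 read 7.0 in the deleted in vivo array, against 5.47 in its control, and fast Tnnt3 read 6.78, against 5.47. In both cultures Tnnt1 (4.49 deleted, 5.05 control) and Tnnt3 (4.70 deleted, 4.92 control) were under the cutoff, and in both in vivo arrays above it.

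The calcium-binding troponin C genes and the inhibitory troponin I genes were also highest in the deleted in vivo array on their brightest probe sets. Fast Tnnc2 read 7.89 in the deleted in vivo array, against 5.52 in its control, and 4.31 in the deleted culture, against 5.32 in its control. Slow and cardiac Tnnc1 read 8.93 in the deleted in vivo array, against 7.06 in its control, and 5.87 in the deleted culture, against 6.62 in its control. These are in vivo differences of 2.37 and 1.87 and in vitro differences of -1.01 and -0.75, opposite in sign for both genes. Slow Tnni1 read 9.13 in the deleted in vivo array, against 6.68 in its control, and 4.87 in the deleted culture, against 5.28 in its control, an in vivo difference of 2.44 (5.44-fold). Fast Tnni2 was split among its 3 probe sets, with in vivo differences of 0.50 for the brightest, 1.13 and -0.39. Neb, the giant ruler protein of the thin filament, was dim on all 4 arrays, at 3.33 to 3.76.

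Thick filament genes encode the myosin motors and their light chains, and 7 of 9 were at least 2-fold higher in vivo. Myl1, the fast alkali light chain, had the largest difference of any member, at 8.87 in the deleted in vivo array, against 5.85 in its control, and 4.58 in the deleted culture, against 5.12 in its control. Mylpf, the fast regulatory light chain, read 9.02 in the deleted in vivo array, against 6.53 in its control, and 5.05 in the deleted culture, against 5.61 in its control. Myl4, the light chain of atrium and of fetal muscle, read 8.93 in the deleted in vivo array, against 6.71 in its control, and 5.77 in the deleted culture, against 6.69 in its control. All 3 light chains were highest in the deleted in vivo array, by 8.15-fold, 5.61-fold and 4.65-fold over the in vivo control. A second Myl4 probe set differed by 0.08.

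The myosin heavy chains, the motors that define fibre types, did not move together. Myh3, the embryonic heavy chain, read 7.77 in the deleted in vivo array, against 5.42 in its control, and was under the cutoff in the deleted culture (4.02) and in its control (4.72). Myh8, the perinatal heavy chain, read 6.01 in the deleted in vivo array, against 4.99 in its control, but 5.63 in the deleted culture, against 6.27 in its control, so that its highest signal was in a culture. The adult fast chains Myh1 and Myh2 were under the cutoff in both in vivo arrays, at 4.35 and 4.90 in the deleted array, against 3.61 and 4.71 in the control. On their brightest probe sets both were above it in the cultures, Myh1 at 5.87 in the deleted culture, against 5.83 in its control, and Myh2 at 6.43, against 6.34. Another Myh1 probe set was also above the cutoff in the cultures (5.64 deleted, 5.89 control). The last was under it (4.62 deleted, 4.52 control). Cross-hybridisation between myosin probe sets was not tested. Over the 3 probe sets of Myh1 the in vivo difference ran from -0.16 to 0.74. The list also held Mybph, a myosin-binding protein, at 7.18 in the deleted in vivo array, against 5.60 in its control, and 4.50 in the deleted culture, against 4.71 in its control. Ttn, the titin spring, read 6.75 in the deleted in vivo array, against 5.23 in its control, and 4.02 in the deleted culture, against 3.81 in its control. Of its 6 probe sets 2 differed by 2-fold (1.52 and 1.39) and the other 4 by -0.14 to 0.15.

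The promoters of the 5 members with the largest in vivo difference among the 35 with a promoter entry are shown because these genes share the largest differences; each is the stretch of 250 bases before the RefSeq start farthest upstream (assembly GRCm38.p6), 5′ to 3′ on the gene's strand. Capitals mark the E-box CANNTG, the letters bound by myogenic factors and by many other helix-loop-helix proteins.
Myl1 (chr1:66945057-66945306, minus strand): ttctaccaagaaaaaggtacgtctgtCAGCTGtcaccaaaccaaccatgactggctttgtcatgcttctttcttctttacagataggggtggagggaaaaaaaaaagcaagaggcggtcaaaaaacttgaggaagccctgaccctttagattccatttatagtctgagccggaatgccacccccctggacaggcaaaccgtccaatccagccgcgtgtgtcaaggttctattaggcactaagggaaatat
Actc1 (chr2:114052876-114053125, minus strand): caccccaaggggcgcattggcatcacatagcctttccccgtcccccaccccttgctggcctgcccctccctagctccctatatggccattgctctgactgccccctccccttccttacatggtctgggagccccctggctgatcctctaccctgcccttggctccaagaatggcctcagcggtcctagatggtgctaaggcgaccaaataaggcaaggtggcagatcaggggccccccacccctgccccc
Tnnt2 (chr1:135836084-135836333, plus strand): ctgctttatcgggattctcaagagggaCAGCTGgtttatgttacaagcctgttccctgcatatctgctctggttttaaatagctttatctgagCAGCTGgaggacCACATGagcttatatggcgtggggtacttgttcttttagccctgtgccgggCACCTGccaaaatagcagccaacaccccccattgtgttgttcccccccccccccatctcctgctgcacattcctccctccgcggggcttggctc
Mylpf (chr7:127211358-127211607, plus strand): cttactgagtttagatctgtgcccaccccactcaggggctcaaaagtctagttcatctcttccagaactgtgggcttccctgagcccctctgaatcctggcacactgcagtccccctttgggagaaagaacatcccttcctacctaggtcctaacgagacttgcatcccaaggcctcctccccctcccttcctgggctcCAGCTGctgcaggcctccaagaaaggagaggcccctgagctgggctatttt
Tnni1 (chr1:135799171-135799420, plus strand): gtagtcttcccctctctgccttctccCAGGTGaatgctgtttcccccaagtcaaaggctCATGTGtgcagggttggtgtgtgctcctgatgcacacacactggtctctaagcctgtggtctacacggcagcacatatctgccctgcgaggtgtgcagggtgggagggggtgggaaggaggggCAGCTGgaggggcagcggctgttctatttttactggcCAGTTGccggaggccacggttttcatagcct

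E-boxes were common in all promoters, so their presence is a description only. CANNTG, which reads the same on both strands, occurred in 16 of 19 promoters of members at least 2-fold higher in vivo, 11 of 16 of the other members and 66.1% of 27025 promoters of the same length. The variant CAGCTG, contained in CANNTG, occurred in 8 of 19 and 5 of 16, against 12.7% of all promoters. CACCTG, also contained in CANNTG and searched on both strands, occurred in 6 of 19 and 2 of 16, against 17.1%. The core letters of the CSL site, TGGGAA, also searched on both strands, occurred in 6 of 19 and 2 of 16, against 21.5%. Among the printed promoters Tnnt2 and Tnni1 held 4 E-boxes each, Myl1 and Mylpf 1 each and Actc1 0 in this window, and TGGGAA was found in Tnni1 only.

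Genes of the Z-disc, the anchor of the thin filaments, and of the cytoskeleton held 1 member past 2-fold of 4. Des, the muscle intermediate filament protein desmin, read 7.85 in the deleted in vivo array, against 6.34 in its control, and 5.60 in both cultures. Its second probe set, dim on all arrays, differed by -0.11 in vivo. Desmin is also made by smooth muscle and pericytes. Actn2 and Actn3, the sarcomeric alpha-actinins, differed by 0.87 and 0.68 in vivo and Ldb3, a Z-disc scaffold, by 0.13. The in vivo control signal of Actn2 (4.99) and both in vivo signals of Ldb3 were under the cutoff.

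Calcium handling genes held 2 members past 2-fold of 4. Casq2, the calsequestrin of slow and cardiac muscle that stores calcium in the sarcoplasmic reticulum, read 7.50 in the deleted in vivo array, against 6.45 in its control, and 5.95 in the deleted culture, against 6.00 in its control. Ryr1, the calcium release channel of skeletal muscle, read 5.75 in the deleted in vivo array, against 4.40 in its control, and 4.35 in the deleted culture, against 4.03 in its control, while its second probe set differed by 0.15 in vivo. Atp2a1, the calcium pump of fast fibres, differed by 0.73 with the in vivo control signal (5.21) under the cutoff. Casq1, the fast calsequestrin, differed by 0.43 with both in vivo signals under it. Ckm, the muscle creatine kinase that buffers ATP, read 6.38 in the deleted in vivo array, against 6.22 in its control.

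Of the 4 acetylcholine receptor subunits of the endplate, 1 was past 2-fold. Chrna1, the ligand-binding alpha subunit, read 7.24 in the deleted in vivo array, against 5.45 in its control, and 4.93 in the deleted culture, against 5.06 in its control. Chrng, the fetal gamma subunit, differed by 0.73, 0.26 and -0.03 over its 3 probe sets, Chrnd by 0.12 and Chrnb1 by -0.77, the lowest in vivo difference of any member. The adult epsilon subunit Chrne, which is no member, was under the cutoff on all 4 arrays (4.39 in the deleted in vivo array and 4.74 in its control). Among membrane proteins of the fibre, Cav3, the muscle caveolin, differed by 0.85 in vivo, Sgca, a sarcoglycan, by 0.06 and Dmd, the gene of dystrophin, by 0.25. The in vivo control signal of Cav3 (4.65) and both in vivo signals of Dmd were under the cutoff. With signals under the cutoff raised to it, Cav3 was at 0.21.

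Among the 7 myogenic factors and cadherin genes, Myog, the factor of terminal differentiation, was the 1 past 2-fold in vivo. It read 7.0 in the deleted in vivo array, against 4.88 in its control, and 4.52 in the deleted culture, against 4.57 in its control, so that its signal passed the cutoff only in the deleted in vivo array, where it was 4.34-fold higher. Myod1, a determination factor, read 4.94 in the deleted in vivo array, against 4.13 in its control, and 3.96 in the deleted culture, against 4.11 in its control. All 4 of these signals were under the cutoff. Myf5, another determination factor, lay between 3.19 and 3.34 on the 4 arrays, Myf6, a late factor, between 3.51 and 3.69, and Pax7 between 3.74 and 4.18. The satellite cell factor and both of these myogenic factors were therefore dim everywhere. Cdh15, the M-cadherin of satellite cells and myoblasts, read 6.55 in the deleted in vivo array, against 6.29 in its control, and 5.54 in the deleted culture, against 5.26 in its control. Mef2c read 6.69 in the deleted in vivo array and 6.69 in its control, and 7.70 in the deleted culture, against 8.09 in its control; its 5 probe sets differed by 0.00 to 0.47 in vivo.

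Set out by class, the in vivo differences were large for the listed embryonic and slow members, divided for fast members and small for satellite cell members. The embryonic and fetal class (Actc1, Tnnt2, Myh3, Myh8, Myl4 and Chrng) had a median in vivo difference of 2.28, with 5 of 6 at least 2-fold higher. The slow class (Tnnt1, Tnnc1, Tnni1 and Casq2) had a median of 1.70, with 4 of 4 at least 2-fold higher. Of these, Myh8 (1.02) and Casq2 (1.04) lay just past 2-fold: Myh8 was at 0.92 in the values as deposited, and with a background added before log2 Myh8 was at 0.76 and Casq2 at 0.93. The slow heavy chain Myh7 and the slow light chain Myl3, which are no members, differed by 0.36 and 0.02 in vivo. Both in vivo signals of Myh7 were under the cutoff. The fast class had a median of 0.74, with 4 of 10 at least 2-fold higher, and its members ran from 0.19 (Myh2) to 3.03 (Myl1). Within it the light chains Myl1 and Mylpf and the troponins Tnnc2 and Tnnt3 were the 4 past 2-fold, while Myh1, Myh2, Atp2a1, Casq1, Actn3 and Tnni2 were not. Satellite cell and myoblast genes (Pax7, Myf5, Myod1 and Cdh15) had a median of 0.15 and 0 of 4 past 2-fold. In the deleted in vivo array 3 of these 4 genes and 3 of the 10 fast genes were under the cutoff. For the embryonic and fetal class and for the slow class that number was 0. Differences of such dim signals are not exact, and the part of signal level in the class medians was not tested. All class medians stand beside -0.01 over all genes, and no difference between classes was tested.

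**Figure D2:**
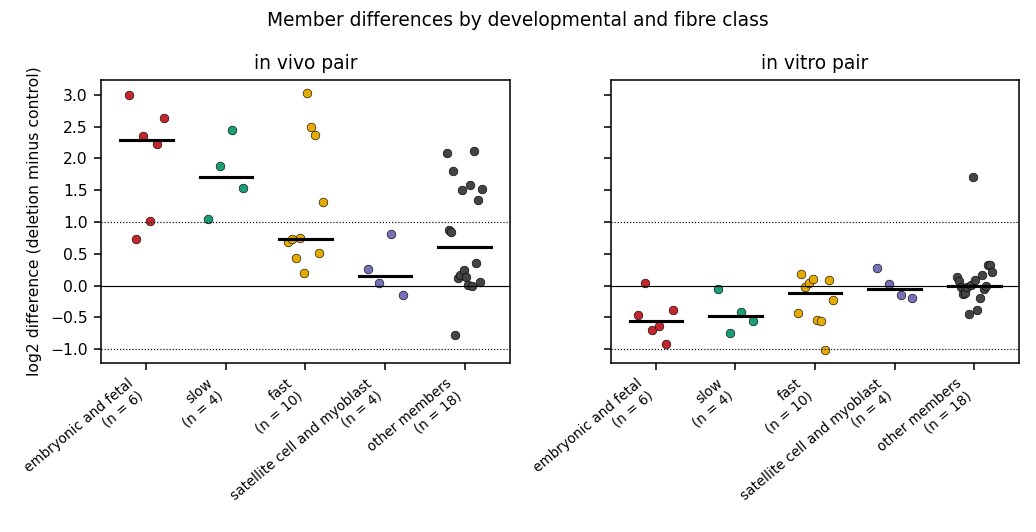
Log2 difference, deletion minus control, of each member in the in vivo pair (left) and the in vitro pair (right), by class; each point is a gene, thick bars are class medians and dotted lines mark 2-fold. In vivo medians were 2.28 for embryonic and fetal, 1.70 for slow, 0.74 for fast and 0.15 for satellite cell and myoblast genes.

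Many members had low signals. A mean signal at or above the cutoff was reached by 28 of 42 members, 17 of them among the 20 past 2-fold in vivo. Without the deleted in vivo array in the mean, 17 of 42 would reach it, so that array itself carried members past the cutoff, and no count over those 28 is given as support. Of the 20 members past 2-fold, 16 had both in vivo signals above the cutoff, and 4 (Myh8, Myog, Ttn and Ryr1) had a control signal under it. With signals under the cutoff raised to it, 18 members remained at least 2-fold higher, and Myh8 (0.73) and Ryr1 (0.46) did not.

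The in vivo deleted array had the highest of the 4 signals for 34 of 42 members, against 29.5% of all genes. The in vivo control exceeded both cultures for 33 of 42 members, against 46.2% of all genes. It lay below both cultures for 8 members: Myh1, Myh2, Myh8, Pax7, Mef2c, Casq1, Cav3 and Dmd. Since each system has its own arrays, a difference between systems cannot be told apart from a difference between array batches.

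In the in vitro pair few members differed by 2-fold. Their median difference was -0.05, against -0.03 over all genes, and 16 of 42 were higher by any amount, against 44.5% of all genes. At least 1.5-fold lower were 5 of 42 (Tnnc1, Tnnc2, Myh3, Myh8 and Myl4), against 6.04% of all genes. Dmd was the 1 member at least 2-fold higher, at 7.23 in the deleted culture, against 5.52 in its control, and under the cutoff in both in vivo arrays (4.61 deleted, 4.36 control). Its second probe set differed by 0.78 and the other 2, both dim, by 0.05 and -0.06, and with the median of its probe sets Dmd was at 0.69. Tnnc2 was the 1 member at least 2-fold lower, with the deleted signal under the cutoff. It was no longer past 2-fold under loess normalization, centring, a background added before log2 or the floor at the cutoff. By class the in vitro medians were -0.56 for embryonic and fetal, -0.48 for slow, -0.12 for fast and -0.06 for satellite cell and myoblast genes, where the spread over all genes was 0.26 (a scaled median absolute deviation). Of the 20 members past 2-fold in vivo, 16 had a negative in vitro difference, as had 10090 of all 18193 genes. For 11 of the 20, both culture signals were under the cutoff.

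RNA integrity measures moved with the in vitro pair. The 3′ probe set of Gapdh exceeded its 5′ probe set by 0.02 in the deleted culture and 1.0 in its control, and that of Actb by 0.40 and 1.11. For Pcx the excess was 2.01 in the deleted culture and 3.16 in its control. In vivo the excess was 0.13 and 0.14 for Gapdh and 0.15 and 0.41 for Actb in the deleted and control arrays. The part of RNA integrity in the in vitro differences of the members, Dmd and Tnnc2 included, and in the in vitro class medians was not tested.

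**Figure D3:**
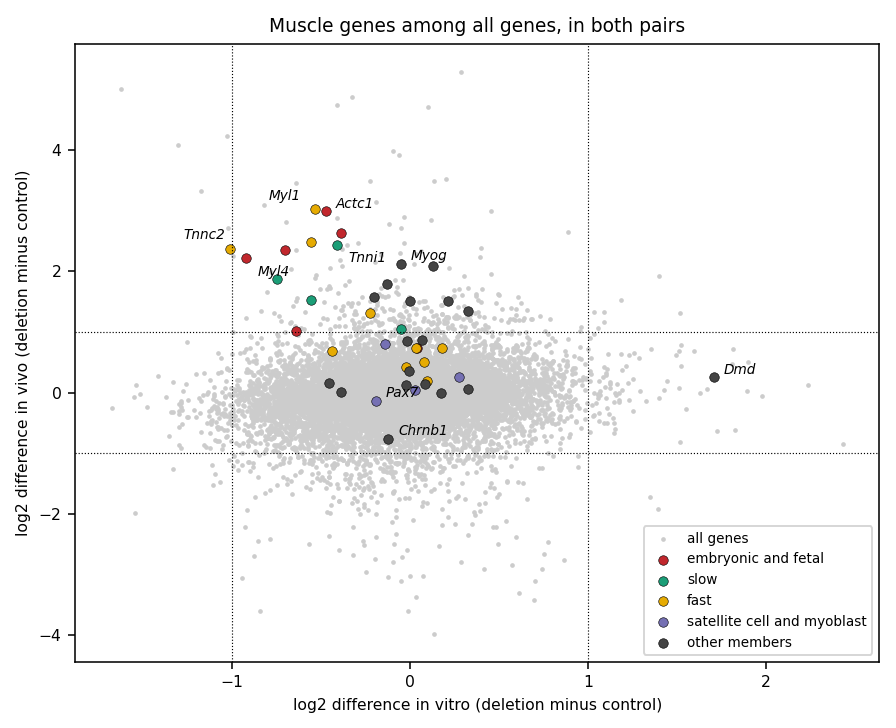
Log2 difference in the in vivo pair (vertical axis) against that in the in vitro pair (horizontal axis) for 18193 genes (grey) and the 42 muscle genes (coloured by class); dotted lines mark 2-fold. The 20 members past 2-fold in vivo lie above the upper dotted line, Tnnc2 alone among members reaches the left line, at -1.01, and Dmd alone passes the right one, at 1.71.

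Other muscle genes, listed by function, were higher in vivo more often than not but mostly by little. Of 53 such names 52 were measured, and 39 of the 52 were higher by any amount in vivo, against 47.5% of all genes. The deleted array exceeded its control 2-fold or more for 3, against 1.87% of all genes, and lay below it by that size for 1, against 2.32%. Their median in vivo difference was 0.18, against -0.01 over all genes. Mymk, the muscle-specific membrane protein that fuses myoblasts, read 6.37 in the deleted in vivo array, against 4.63 in its control, with 4.24 in the deleted culture, against 4.31 in its control. Like Myog, it was above the cutoff only in the deleted in vivo array, at 3.34-fold over the control. With signals under the cutoff raised to it, the in vivo difference of Mymk was 1.09, and with a background added before log2 it was 1.29. Ankrd1, a stretch-responsive sarcomere repeat protein, read 7.35 in the deleted in vivo array, against 5.85 in its control, and 4.38 in the deleted culture, against 4.57 in its control. Eno3, the muscle enolase, read 8.14 in the deleted in vivo array, against 7.10 in its control, and 6.20 in the deleted culture, against 6.65 in its control. Both were thus highest in the deleted in vivo array. Mb, the oxygen store myoglobin, read 6.58 in the deleted in vivo array, against 5.72 in its control, and 4.66 in the deleted culture, against 4.81 in its control. Myom2, an M-band protein, read 5.83 in the deleted in vivo array, against 5.09 in its control, and 4.95 in the deleted culture, against 4.48 in its control. With the median of probe sets the in vivo difference was 0.53 for Mb and 0.30 for Myom2. Without _x_at and _s_at probe sets that of Myom2 was 0.20. Cdon, a cell surface receptor that promotes myogenesis, was the 1 past 2-fold in the other direction, at 8.46 in the deleted in vivo array, against 9.70 in its control, and 9.08 in the deleted culture, against 9.51 in its control. Over all probe sets of Cdon the median difference was -0.67. Among genes of adult fibres on this list, Myh4, the heavy chain of the fastest fibres, read 4.39 in the deleted in vivo array, against 4.46 in its control, and Pvalb, the calcium buffer of fast fibres, 5.09, against 5.37. Myh7, the slow heavy chain, read 5.15, against 4.79. Both in vivo signals of Myh4 and Myh7 and the deleted in vivo signal of Pvalb were under the cutoff. Others were above the cutoff in both in vivo arrays with small differences, such as the slow light chain Myl3 at 6.36, against 6.34 in the control, and Myoz1, a Z-disc protein of fast fibres, at 6.23, against 6.15.

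Markers of other cell types were set beside the muscle genes. Keratinocyte markers were divided in vivo. Of 9 measured markers 5 were at least 2-fold higher, against 1.87% of all genes. Krt6a (5.29) and Krt14 (5.00), both epidermal keratins, led them. Trp63 (-0.45), Krt10 (-0.33) and Krt1 (-0.19) were lower, and Epcam differed by 0.07. In the deleted culture 3 of the 9 were at least 2-fold lower, against 0.693% of all genes. The summed linear signal of the 9 markers was 6214 in the deleted in vivo array, against 546 in its control, and 817 in the deleted culture, against 1200 in its control. The summed linear signal of the 42 muscle genes was 7611 in the deleted in vivo array, against 2328 in its control, and 1785 in the deleted culture, against 1955 in its control. Krt1 was under the cutoff on all 4 arrays. The part of keratinocyte RNA in the muscle gene differences was not tested.

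Smooth muscle and pericyte markers were higher in 8 of 8 cases in vivo, against 47.5% of all genes, with a median of 0.36. Past 2-fold were 2 of them, Actg2 (1.73) and Des (1.51), against 1.87% of all genes. The other differences ran from 0.18 to 0.61, and Rgs5 was under the cutoff on all 4 arrays. Des is counted among the 42 muscle genes too. Acta2, the smooth muscle actin, differed by 0.20, and Myh11, the smooth muscle myosin, by 0.38. The summed linear signal of this list was 17864 in the deleted in vivo array, against 14512 in its control, and 11467 in the deleted culture, against 10366 in its control. Its part in the muscle gene differences was not tested. Cardiac markers had a median of -0.20 and 0 of 7 past 2-fold, and Myh6, Myl7, Nppa, Nppb and Sln were under the cutoff on all 4 arrays. Nkx2-5 was above it in both in vivo arrays (6.24 deleted, 6.47 control), and Tnni3 in the in vivo control only (5.33). The cardiac list summed to 227 in the deleted in vivo array, against 251 in its control, and to 161 in the deleted culture, against 165 in its control.

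The remaining lists held 2 genes past 2-fold in vivo. These were the fibroblast gene Lum, a collagen-binding proteoglycan, at -1.06, and the macrophage gene Lyz2, a lysozyme, at -1.06. Medians in vivo were -0.06 for fibroblast, 0.15 for endothelial, -0.04 for macrophage, 0.00 for Schwann cell and 0.43 for adipocyte markers.

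**Figure D4:**
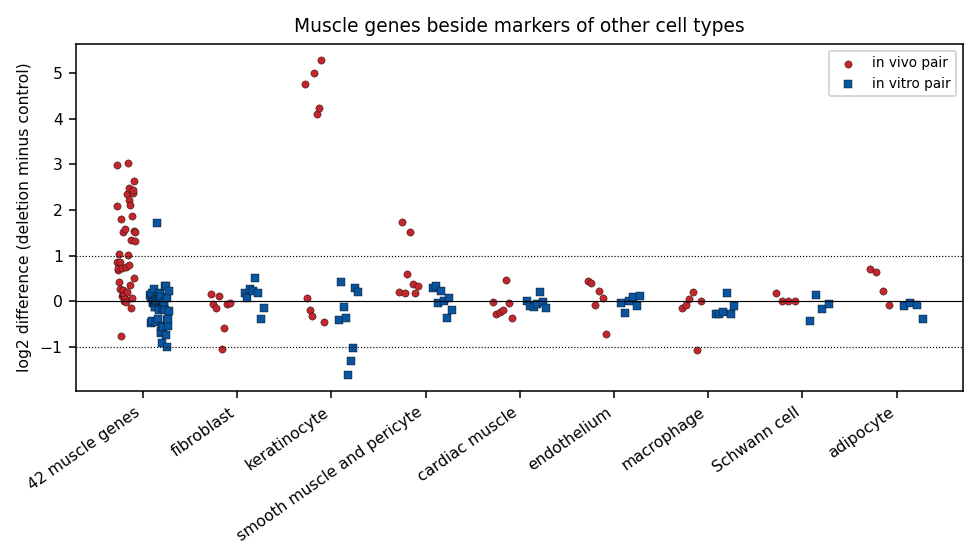
Log2 difference, deletion minus control, of the 42 muscle genes and of the markers of 8 other cell types; each point is a gene, red circles are the in vivo pair, blue squares the in vitro pair, and dotted lines mark 2-fold. Muscle genes and keratinocyte markers have many in vivo points above 2-fold, smooth muscle and pericyte markers have 2, and the other lists have 0.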

How the data were processed

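Members and gene lists were chosen with earlier results of these data known. The authors' deposited table gives log2 signals for 45101 probe sets on 4 arrays, with 0 missing values; the scale was read from the range, and the software, background correction, centring and normalization are not given in the sources used here. Poly(A) RNA, per the labels' protocols, was primed with T7 oligo(dT) and transcribed into biotin-labelled cRNA, so signal depends on distance from the 3′ end.

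Signals were quantile normalized over the 4 arrays (pandas 2.3.3, numpy 2.4.6). Of 35877 probe sets in the platform annotation, control probe sets left out, 34945 had 1 gene symbol and 932 had several and were not named. Symbols were updated through RefSeq (GRCm38.p6) for 34741. Each gene was read from its brightest probe set by mean signal. No level filter was applied to the counts, because the mean includes the deleted in vivo array. No test was made, since each group has 1 array; the number of arrays limits the precision. Counting was checked on simulated data.

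Values on all 4 arrays, or their range, were given for members at least 2-fold different with the higher signal above the cutoff. They were also given for 7 myogenic genes whatever their values. The wider muscle list gave up to 6 more genes, by size of the in vivo difference. Of the markers of other cell types past 2-fold in vivo, up to 2 per list were named, by size of that difference. Other markers were named without a fixed rule, and no endothelial, Schwann cell or adipocyte gene was named. Chrne, Myh4, Pvalb, Myh7, Myl3, Myoz1, Acta2, Myh11, Krt1 and the dim cardiac markers were named after their values were seen. Alternatives were the values as deposited, loess (statsmodels 0.14.6) or median centring of each pair, the 20th percentile of linear signal added, a floor at the cutoff, filters at the 40th and 60th percentiles, the median of a gene's probe sets, removal of _x_at and _s_at probe sets, and thresholds of 1.5-fold and 3-fold.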

Additional observations from a re-analysis of the deposited data

Results flagged for a closer look

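Tnnc2, the fast troponin C, stood out because it was at least 2-fold different in opposite directions in the 2 systems: 2.37 in vivo and -1.01 in vitro on the log2 scale, each from 1 array against 1. The difference between the systems was not tested. With signals under the cutoff raised to it, the in vitro value was -0.04.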

How the results depend on the processing

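The count of 20 members at least 2-fold higher in vivo lay between 17 and 20 under the values as deposited, loess, centring, the added background, the floor, the median of probe sets and the removal of _x_at and _s_at probe sets. It was 17 of the 28 members left by the 40th percentile filter and 3 of the 4 left by the 60th, which are no check of stability because the deleted in vivo array enters the mean they filter on. The count was 27 at 1.5-fold and 12 at 3-fold. The count of 0 lower in vivo became 1 at 1.5-fold (Chrnb1, with the deleted signal under the cutoff). The count of 1 higher in vitro (Dmd) became 0 with the 60th percentile filter and with the median of probe sets. The count of 1 lower in vitro (Tnnc2) became 0 under loess, centring, the added background, the floor, the 60th percentile filter and the 3-fold threshold, and 5 at 1.5-fold. The in vivo member median of 0.86 was 1.41 with the 40th percentile filter (28 members) and 1.98 with the 60th (4 members), and the in vitro median of -0.05 was -0.31 with the 40th percentile filter and -0.57 with the 60th. Under the filters fewer members are counted, and the deleted in vivo array enters the mean they filter on. The causes of these changes were not tested.

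For the 34 genes named by rule outside the marker lists, 0 differences past 2-fold changed sign. For these genes 45 of 538 values moved by more than the spread over all genes (0.27 in vivo and 0.26 in vitro, a scaled median absolute deviation). With the median of probe sets Ttn was at 0.16, Des at 0.70, Ryr1 at 0.75 and Myl4 at 1.15 in vivo, and with the added background Myh8 was at 0.76, Ryr1 at 0.92 and Casq2 at 0.93. Myh8 was at 0.92 in the values as deposited. No paired analysis was possible because each group holds 1 array, and no replicate could be left out. Without detection calls or scanner files, signals near the bottom of the scale set no bound on expression.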
